A study of Danio rerio with 6 samples.

Results

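The 2 libraries numbered replicate 3, 1 from the control group and 1 from the graphene oxide group, were compared with the 4 libraries numbered replicate 1 or 2, so that 2 of the 6 libraries in all stand against the other 4. The 6 RNA sequencing libraries carry the label liver of wild-type AB zebrafish, a common laboratory strain, at an age of 3 months. The control group (CK) and the group treated with graphene oxide nanoparticles (GO) have 3 libraries each, and the 2 groups share strain, genotype, tissue and age. No dose or exposure time is used here, and the labels do not say whether the libraries came from separate fish or pools. The group was a term of the fit, and its own effect is not described. Replicate 3 was set apart because its values had been seen to differ in these same data. All differences below therefore describe these libraries and are given without p-values.

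A fish larva or adult holds tissues with little overlap in their strongest transcripts. Neurons carry ion channels, synaptic proteins and the RNA-binding proteins of the elav family, hepatocytes secrete plasma proteins, and chondrocytes secrete fibrillar collagens and aggrecan. In the embryo and larva, organs are laid out by families of transcription factors such as Hox, Pax, Sox, Gata and Tbx. Liver, pancreas, kidney, skeleton and muscle later switch on the transporters, enzymes and matrix proteins by which they are recognised. In a library made from a bulk sample, fewer cells of a type and less RNA per cell cannot be told apart.

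Levels are given as CPM, the estimated reads of a gene relative to all reads of its library, scaled between libraries by TMM, a method that sets most genes to no difference. Lists of genes are given as sums of unscaled CPM. Values run in the order of replicates 1, 2 and 3 within each group. A difference is the log2 ratio of replicate 3 to replicates 1 and 2 from the fit with its standard error, and a gene is "called" where the edgeR quasi-likelihood test had an adjusted p under 0.05. A gene was tested where its FPKM, a level per length and depth, averaged at least 1 over the 6 libraries. The list members just inside that limit were timp4.1 and mmp25b at 1.008 FPKM, and those just outside were foxg1c at 0.9967 and kiss1 at 0.995 FPKM. A gene that passed only because it was high in replicate 3 had to differ.

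Total estimated reads were 9739760 to 12998273 per library. Replicates 1 and 2 of a group differed little more than sampling noise: chi-square over its degrees of freedom was 1.62 for the control pair and 1.56 for the graphene oxide pair. It was 7.25 for the 2 replicate 3 libraries, but these are of different groups, so the values are not alike in kind. Of 19313 tested genes, 10789 (55.9%) were called, 5568 (28.8%) higher and 5221 (27.0%) lower in replicate 3. The number called at least 2-fold higher was 2570 (13.3%) and at least 2-fold lower 690 (3.57%), and nothing is read from these shares, since this contrast chose the libraries. The CPM of the 2 sets of libraries did not overlap for 12278 genes (63.6%). The median log2 difference of all tested genes was 0.00. The genes called at least 2-fold higher took 2.7% to 3.07% of the counts of replicates 1 and 2 and 11.9% and 12.5% of replicate 3. Those called at least 2-fold lower took 3.65% to 3.89% against 1.8% and 1.6%.

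Of the 2570 genes at least 2-fold higher, 73 were in the lists of hepatocyte, exocrine pancreas, enterocyte, and islet and gut endocrine genes and 2497 were in none of them. These lists are short, and the 2497 include liver and gut genes outside them. Over 85 lists of organ, cell type, family and pathway genes, 3018 of 3497 members were tested and 479 were not. The counts called in each list below stand beside 28.8% higher and 27.0% lower among all tested genes. A list near those shares has no direction of its own. Of the genes at least 2-fold different, 1956 higher and 530 lower ones were in no list. As a check of the tissue label, the hepatocyte list summed to 1321, 1312 and 14220 CPM in control and 600.9, 585.6 and 15860 CPM with graphene oxide. The fast muscle list summed to 118400, 118900 and 83950 CPM in control and to 108100, 108200 and 86270 CPM with graphene oxide. The plasma transport protein gene ttr (gene ID 449556) was at 0, 0.237 and 18.3 CPM in control and 0.184, 0.471 and 25.4 CPM with graphene oxide. This defining hepatocyte transcript was thus close to 0 in the 4 libraries of replicates 1 and 2. In all 6 libraries, replicate 3 included, the fast muscle list summed far above the hepatocyte list. Replicate 3 of control and graphene oxide also held neuron genes at 6654 and 6607 CPM and photoreceptor genes at 8353 and 6878 CPM. The transcripts of none of the 6 libraries were thus mainly those of liver, whatever the label.

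**Figure D1:**
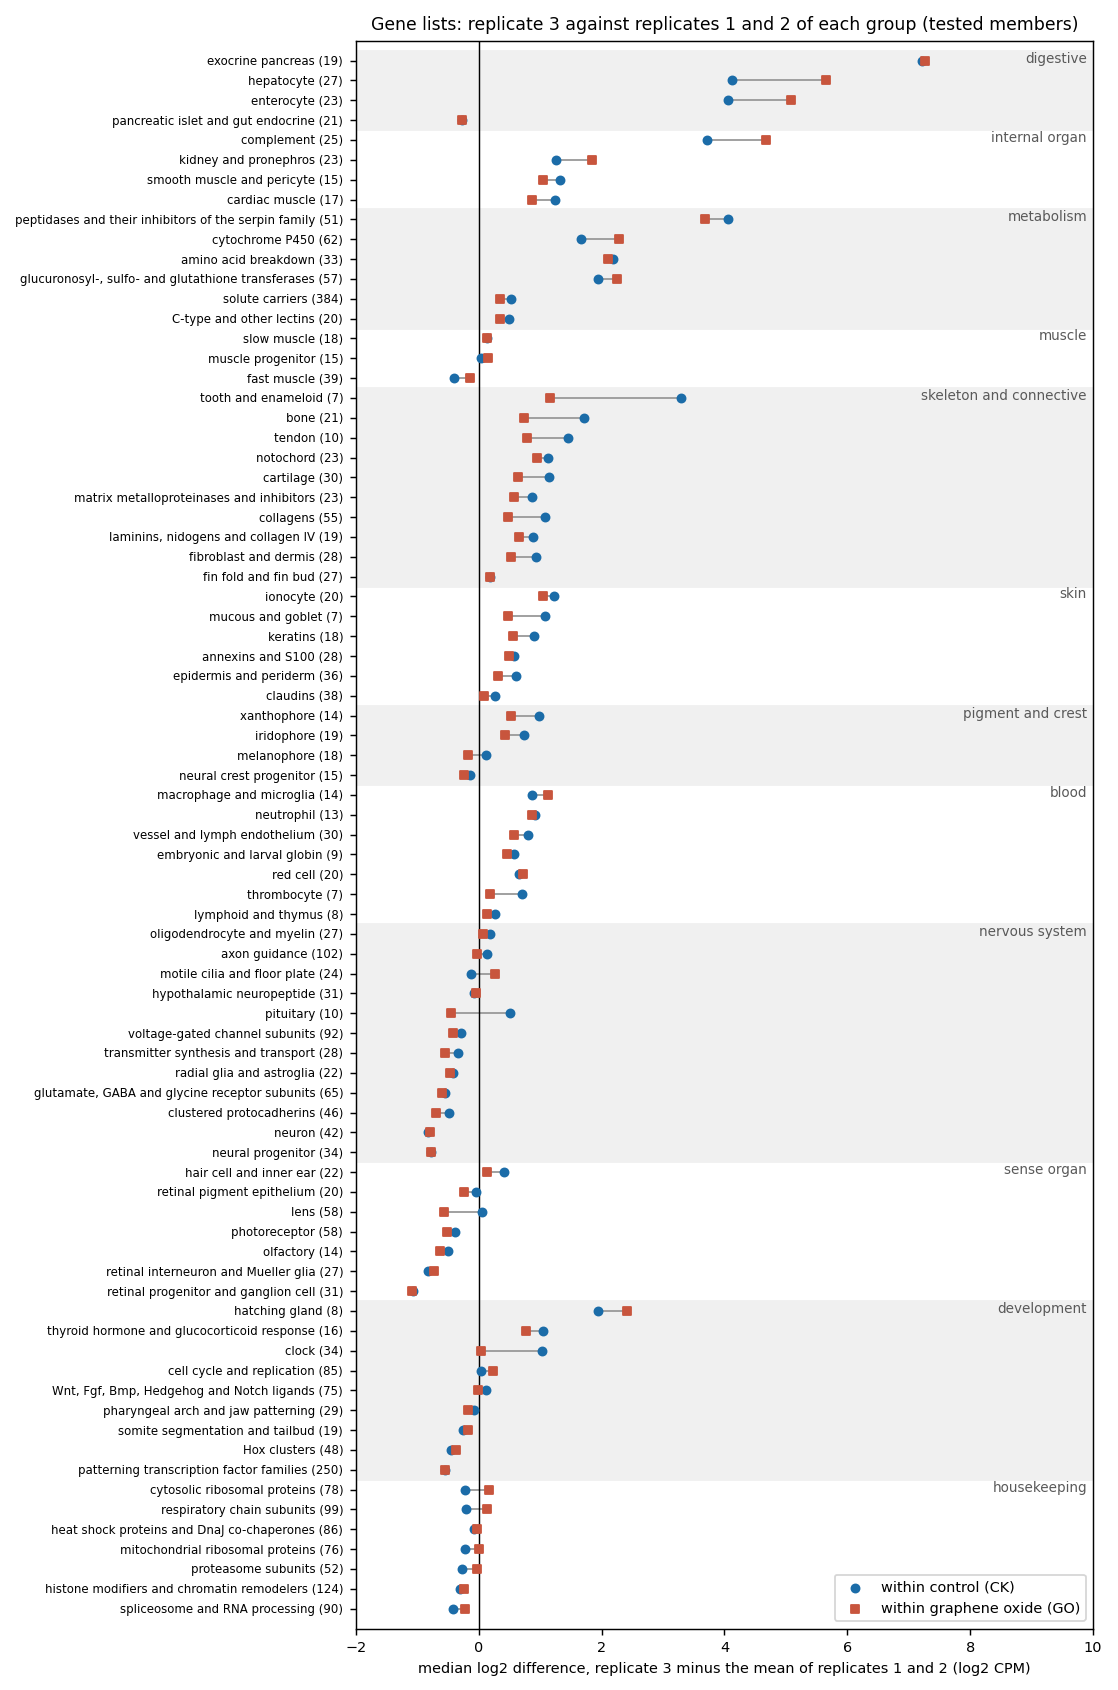
Median log2 difference of the tested members of each gene list (number of tested members in brackets), replicate 3 minus the mean of replicates 1 and 2, in log2 CPM, for control (blue circles) and graphene oxide (red squares), with lists grouped by organ system. Hepatocyte, exocrine pancreas, enterocyte, cartilage and bone lists lie to the right of 0 and neuron, neural progenitor and retinal lists to the left in both groups, while the clock, pituitary and lens lists differ between the groups.

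The difference was much alike in the 2 groups, which share no library. Of the tested genes, 15730 had the same sign within control and within graphene oxide. The 2 sets of differences had a Pearson correlation of 0.866 over the genes, which are no independent replicates. In control, replicate 3 was at least 2-fold above the mean of replicates 1 and 2 for 2976 genes and with graphene oxide for 2366. The 1958 genes in both are 65.8% of the first set and 82.8% of the second. At least 2-fold below were 813 and 917 genes, and the 415 in both are 51% and 45.3%.

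**Figure D2:**
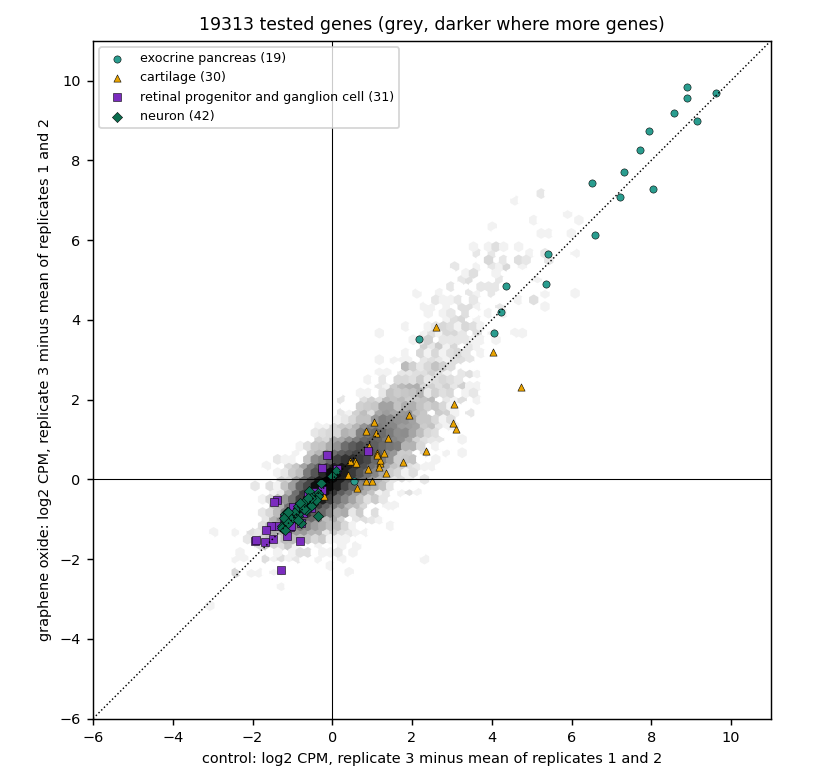
Difference of replicate 3 from the mean of replicates 1 and 2 in log2 CPM within control (horizontal) and within graphene oxide (vertical) for 19313 tested genes, shaded darker where more genes fall, with the tested members of 4 lists marked. Exocrine pancreas genes lie at the upper right, neuron and retinal progenitor genes at the lower left, and most cartilage genes below the dotted line of equal differences.

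Transcripts of neurons and of neural progenitors were lower in replicate 3. Of 42 tested neuron genes 39 were called lower and none higher, with a median log2 difference of -0.77. The list summed to 11760, 11920 and 6654 CPM in control and 11380, 11460 and 6607 CPM with graphene oxide. The RNA-binding protein gene elavl3 (30732), a marker of young neurons, was at 885, 874 and 382 CPM in control and 837, 858 and 385 CPM with graphene oxide, a log2 difference of -1.17 ± 0.06 (SE). Both replicate 3 libraries lay far below the other 4, with no overlap, although 63.6% of all tested genes did not overlap either. The sodium pump subunit genes atp1a3a and atp1b2a differed by -1.24 ± 0.06 and -1.23 ± 0.06, and the microtubule regulator gene stmn2b of growing axons by -1.22 ± 0.07.

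Neural progenitor genes were lower together with those of the neurons they form. Of 34 tested members 29 were called lower and none higher (median -0.81), and the list summed to 1388, 1389 and 814.3 CPM in control and 1344, 1339 and 775 CPM with graphene oxide. The progenitor transcription factor gene sox2 (378723) was at 75.4, 75.3 and 38.2 CPM in control and 75.9, 75.5 and 36.3 CPM with graphene oxide (-1.02 ± 0.07). The 4 libraries of replicates 1 and 2 were within 1 CPM of each other and replicate 3 was about a factor of 2 lower. The proneural gene ascl1a, which commits progenitors to a neural fate, differed by -1.12 ± 0.14, and sox3 by -1.10 ± 0.10. The genes neurod4 (-1.51 ± 0.08) and pou3f2b (-1.19 ± 0.08) went the same way, but their counts were not whole, as happens when reads are shared out among similar genes.

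Signalling parts of neurons were lower with them. Of 65 tested glutamate, GABA and glycine receptor subunits 46 were called lower and 2 higher (median -0.55). Of 92 voltage-gated channel subunits 41 were lower and 12 higher (median -0.37). The calcium channel gene cacna1aa (562059), whose channel triggers transmitter release, was at 370, 368 and 185 CPM in control and 355, 360 and 161 CPM with graphene oxide (-1.07 ± 0.06), again without overlap. Of 46 clustered protocadherins, cell surface proteins by which neurons tell themselves from others, 25 were lower and none higher (median -0.55). Their counts are divided between near copies, so single members are uncertain. Of 28 genes for transmitter synthesis and transport 16 were lower and 5 higher (median -0.41). The vesicular transporter gene slc32a1 of inhibitory neurons differed by -1.10 ± 0.06, while the decarboxylase gene ddc, which is also active in liver, kidney and gut, differed by 2.35 ± 0.20.

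The voltage-gated channel subunits, a list not limited to neuronal genes, did not all follow. The sodium channel subunit genes scn4ab and scn4ba were called higher, by 1.74 ± 0.12 and 1.42 ± 0.14. Myelin and oligodendrocyte genes were also mixed, with 12 of 27 called higher and 7 lower (median 0.12). The myelin basic protein gene mbpa was at 29.9, 29.9 and 48.8 CPM in control and 30.26, 31.5 and 51.2 CPM with graphene oxide (0.72 ± 0.07), above the other 4 libraries in both groups. The transcription factor gene myt1a, of oligodendrocyte progenitors and young neurons, went the other way (-1.04 ± 0.07). Radial glia and astroglia genes were lower for 14 of 22 (median -0.47), among them the glutamate transporter gene slc1a2b (-1.07 ± 0.08) and gfap (-0.78 ± 0.07). Axon guidance genes had no side, with 31 of 102 higher and 30 lower (median 0.05). Several semaphorins, secreted guidance cues also made outside the nervous system, were higher, such as sema3d (1.38 ± 0.16), and slit1b was lower (-0.96 ± 0.08). Hypothalamic neuropeptide genes (2 higher and 5 lower of 31, median -0.07) and genes of motile cilia (1 higher and 3 lower of 24, median -0.05) lay near 0.

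The retina had the lowest list of all. Retinal progenitor and ganglion cell genes were called lower for 27 of 31 tested members, 18 of them at least 2-fold, and higher for 1 (median -1.09). Summed over the list, levels were 1747, 1749 and 1125 CPM in control and 1627, 1635 and 1093 CPM with graphene oxide. The eye field transcription factor genes rx1, rx2 and rx3 differed by -1.17 ± 0.15, -1.83 ± 0.22 and -1.70 ± 0.21. The head and eye patterning gene otx2 (30501) was at 74.3, 67.3 and 22.02 CPM in control and 52.1, 54.0 and 22.09 CPM with graphene oxide (-1.47 ± 0.11). The bipolar cell transcription factor gene vsx1 (30598) was at 145, 155 and 42.7 CPM in control and 121, 119 and 38.3 CPM with graphene oxide (-1.74 ± 0.07). The photoreceptor transcription factor gene crx (81881) was at 200, 207 and 72.3 CPM in control and 185, 190 and 66.2 CPM with graphene oxide (-1.50 ± 0.06). In all 3 genes the replicate 3 libraries lay below the others by more than the spread among those, beside 63.6% of all tested genes without overlap. The counts of vsx1 and crx were not whole in at least 1 library.

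Genes of the finished photoreceptor differed less. Of 58 tested members 38 were called lower and 4 higher, with a median of -0.50. The rod opsin gene rho (30295) was at 902, 956 and 567 CPM in control and 764, 771 and 568 CPM with graphene oxide (-0.57 ± 0.07). The ultraviolet cone opsin gene opn1sw1 (30582) was at 1928, 1914 and 1535 CPM in control and 1500, 1489 and 1202 CPM with graphene oxide (-0.32 ± 0.05). Here the sets of libraries overlapped, since control replicate 3 was above graphene oxide replicates 1 and 2, and the gene was not called without the group term. The cone arrestin gene arr3a (-1.10 ± 0.11) and the green cone opsin gene opn1mw2 (-2.01 ± 0.31) differed by more, the latter by -3.12 without graphene oxide replicate 3. Retinal interneuron and Mueller glia genes were lower for 17 of 27 and higher for 3 (median -0.76). The pigment epithelium list was mixed (7 higher and 9 lower of 20, median -0.03). The lens list, mostly crystallins, was lower for 25 and higher for 8 of 58 (median -0.17), but its median was 0.05 within control and -0.56 within graphene oxide.

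The lists of other sense organs held genes of both directions. In the inner ear list 9 of 22 tested members were called higher and 6 lower (median 0.43), and the 4 named higher ones were the otolith matrix protein gene otomp, the cupula gene zpld1a, the extracellular membrane gene otog and the calcium buffer gene pvalb9. The gene otomp (565818) was at 1.06, 1.11 and 47.4 CPM in control and 3.86, 4.48 and 46.6 CPM with graphene oxide (4.22 ± 0.31), so that both replicate 3 libraries were alike and the others far below. Genes of hair cells went both ways, with the calcium-binding protein gene s100t lower (-0.82 ± 0.13) and the vesicle fusion gene otofb higher (1.25 ± 0.09). Of 14 olfactory genes 9 were lower and 1 higher (median -0.55). The G protein subunit gene gng13b differed by -1.58 ± 0.06, and stoml3b (550523) stood alone in the other direction, at 2.75, 2.61 and 88.2 CPM in control and 1.29, 1.57 and 73.2 CPM with graphene oxide (5.31 ± 0.13).

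**Figure D3:**
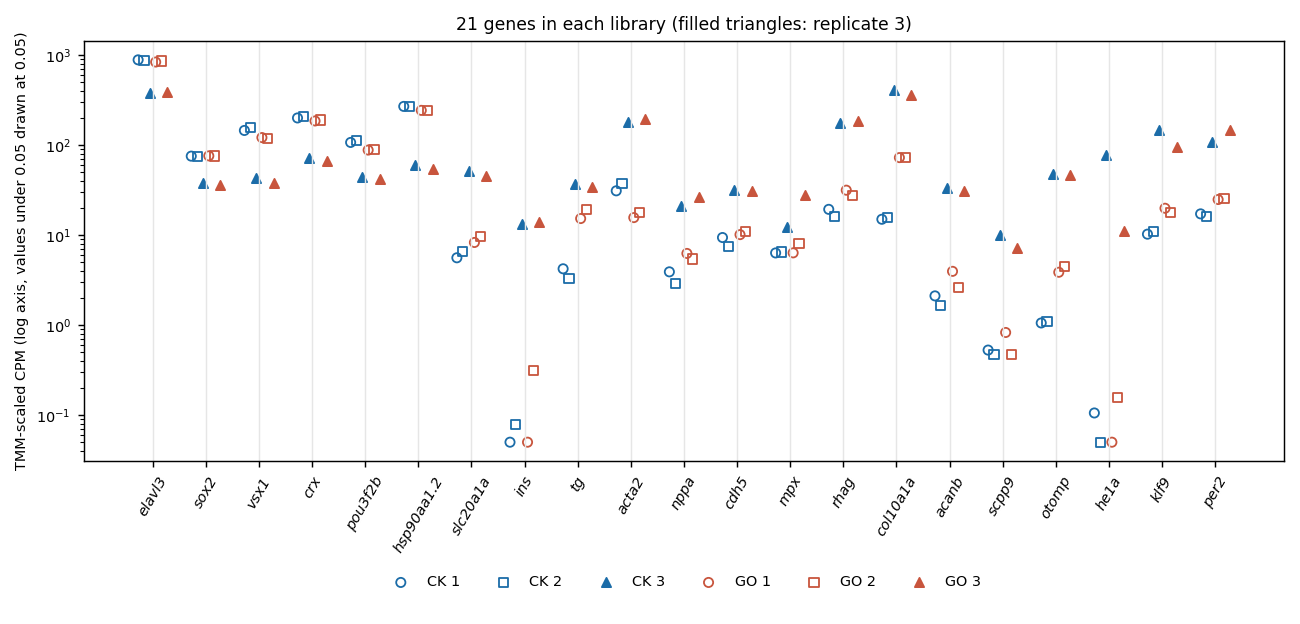
TMM-scaled CPM on a log axis of 21 genes in each library, with open symbols for replicates 1 and 2 and filled triangles for replicate 3, control in blue and graphene oxide in red. The neural and retinal genes at the left have replicate 3 below the other 4 libraries, and the kidney, smooth muscle, heart, blood and skeleton genes have it above.

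In the digestive organs and their metabolism nearly every tested marker was higher in replicate 3. All 27 tested hepatocyte genes, all 23 enterocyte genes and 18 of 19 exocrine pancreas genes were called at least 2-fold higher, with medians of 4.89, 4.59 and 8.58. Replicate 3 was set apart with values of these data known, so these counts are a description and no independent support. Of the pancreas genes, 4 had 0 counts in replicates 1 and 2, so that they passed the filter only through replicate 3 and had to differ. With those 4 at their lower bounds the median was 7.74. The bound sets 3 counts in each library of replicates 1 and 2, at most 0.317 CPM. By it the elastase gene ela2l was at least 439-fold higher and the phospholipase gene pla2g1b at least 15.9-fold higher, and the counts of ela2l were divided with similar genes. The bile acid synthesis gene cyp7a1 (394148) was at 0.106, 1.11 and 53.1 CPM in control and 0.276, 0.393 and 40.7 CPM with graphene oxide (6.52 ± 0.28). The bile salt export pump gene abcb11b reached 23.3 and 23.6 CPM in the replicate 3 libraries, against 0 to 0.106 CPM in the others.

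Enzyme families of liver and gut were higher as well. The lists of transferases, amino acid breakdown and complement were written after their values were seen, so their counts are no independent support. Of 62 tested cytochrome P450 genes 52 were called higher, 44 of them at least 2-fold, and 2 lower (median 2.18). Of 57 glucuronosyl-, sulfo- and glutathione transferases, which make foreign compounds soluble, 49 were higher and 1 lower (median 2.1). Of 33 genes of amino acid breakdown 31 were higher and none lower (median 2.16), among them the histidase gene hal (5.68 ± 0.15) and the urocanase gene uroc1 (4.75 ± 0.17), which act in sequence on histidine. Of 25 complement genes 22 were higher and 1 lower (median 4.60). The lower one was properdin, cfp, which stabilises the complement convertase (-1.54 ± 0.12). The peptidase and serpin list had 41 higher and 3 lower of 51 (median 3.96, or 3.66 with 5 members at their bounds). Its opposite member serpinh1b, the collagen chaperone, was at 130, 124 and 26.3 CPM in control and 70.0, 67.3 and 17.98 CPM with graphene oxide (-2.11 ± 0.10). Solute carriers, a family active in most tissues, had 192 higher and 73 lower of 384 (median 0.44, or 0.42 with 1 member at its bound). The chloride exchanger gene slc26a3.2 (7.10 ± 0.23) and the amino acid transporter gene slc6a19a.2 (5.68 ± 0.28) were among the highest, and the neutral amino acid transporter gene slc1a4 (-1.98 ± 0.16) was the lowest of those named.

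Most kidney genes were higher. Of 23 tested kidney and pronephros genes 16 were called higher, 14 at least 2-fold, and 3 lower (median 1.64). The list summed to 528.1, 519.6 and 965.2 CPM in control and 529, 555.2 and 1033 CPM with graphene oxide. The phosphate transporter gene slc20a1a (406458) of the proximal tubule was at 5.60, 6.56 and 51.4 CPM in control and 8.28, 9.66 and 45.6 CPM with graphene oxide (2.70 ± 0.16), although its counts were not whole. The organic anion transporter gene slc22a6l differed by 3.34 ± 0.33 and the endocytic receptor gene cubn, which the gut also expresses, by 2.74 ± 0.22. The transcription factor gene pax8 (60637), needed for kidney and thyroid and also expressed in hindbrain and ear, was at 18.4, 16.4 and 6.01 CPM in control and 14.7, 18.3 and 8.49 CPM with graphene oxide (-1.23 ± 0.17). Its relative pax2a differed by -0.86 ± 0.07 and the transporter gene slc4a4a, also a gene of glia, by -0.46 ± 0.06. Of other kidney transcription factor genes, hnf1ba was higher by 1.25 within control and 2.07 within graphene oxide. The gene wt1a was higher by 0.91 and 2.05, and osr1 differed by -0.02 in the fit.

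Endocrine genes went both ways. In the list of islet and gut endocrine genes 5 of 21 were called higher and 10 lower (median -0.24). The insulin gene ins (30262) was at 0, 0.0790 and 13.2 CPM in control and 0, 0.314 and 14.1 CPM with graphene oxide. Replicate 3 had insulin transcripts in both groups and the other libraries had at most a few counts. The somatostatin gene sst2 (5.84 ± 0.39) and the glucagon gene gcga (3.93 ± 0.34) were higher too. The transcription factor gene isl1 (30147), which serves islets and many neurons, was at 124, 121 and 51.5 CPM in control and 98.4, 97.4 and 41.2 CPM with graphene oxide (-1.25 ± 0.06). The genes insm1a (-1.32 ± 0.08) and pax6b (-1.14 ± 0.10), likewise shared with the nervous system, were lower. The hormone genes sst1.1 (-0.05 ± 0.13) and pyya (-0.42 ± 0.14) lay at or below 0. The thyroid hormone precursor gene tg was at 4.22, 3.32 and 36.6 CPM in control and 15.3, 19.1 and 34.1 CPM with graphene oxide (2.02 ± 0.41), and differed by 0.98 without control replicate 3 and 3.30 without graphene oxide replicate 3. The steroid synthesis gene star differed by 2.05 ± 0.22, and the surfactant gene sftpba of the swim bladder by 3.62 ± 0.43. Of the thyroid, interrenal and swim bladder lists 4, 4 and 3 members were tested. In the pituitary list the growth hormone gene gh1 was higher (1.31 ± 0.19), and 2 of 10 tested members were called in each direction.

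Smooth muscle and heart genes were higher and most fast muscle genes lower. Of 15 tested smooth muscle and pericyte genes 12 were called higher and none lower (median 1.26), and the list summed to 648.1, 670.2 and 1438 CPM in control and 723.8, 729.9 and 1432 CPM with graphene oxide. The smooth muscle actin gene acta2 (322509) was at 31.0, 37.5 and 182 CPM in control and 15.6, 17.99 and 196 CPM with graphene oxide (2.97 ± 0.21). The smooth muscle myosin gene myh11a differed by 2.66 ± 0.08 and the calponin gene cnn1b by 2.76 ± 0.25. In all 3 genes the replicate 3 libraries lay above every other library, but 63.6% of all tested genes had no overlap in one direction or the other. These genes were named by the size of their difference.

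Of 17 cardiac genes 14 were called higher and 1 lower (median 0.78). The atrial natriuretic peptide gene nppa (321442) was at 3.91, 2.93 and 21.1 CPM in control and 6.26, 5.42 and 26.4 CPM with graphene oxide (2.39 ± 0.16). The cardiac myosin light chain gene myl7 differed by 1.58 ± 0.14. The cardiac transcription factor gene gata4, which also acts in liver and gut, had 0 counts in replicates 1 and 2 and was at 4.83 and 3.1 CPM in replicate 3, at least 9.80-fold higher. The lower one was actc1a (-0.69 ± 0.06), an actin gene with near copies.

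Of 39 fast muscle genes 22 were lower and 6 higher (median -0.25). The actin gene actc1b was at 16560, 16750 and 7671 CPM in control and 15770, 15640 and 8700 CPM with graphene oxide (-0.98 ± 0.07), and myhz1.1 differed by -0.52 ± 0.07. These genes have near copies, and their counts were not whole. Single myosins went the other way, such as myhb (100002040), at 64.1, 58.4 and 407 CPM in control and 127, 125 and 341 CPM with graphene oxide (2.12 ± 0.23). Slow muscle genes were higher for 8 and lower for 4 of 18 (median 0.12), with the slow myosin gene smyhc1 at 0.80 ± 0.05. The muscle progenitor list had 3 higher and 2 lower of 15 (median 0.07), and the muscle determination gene myod1 was not called (0.07 ± 0.11).

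**Figure D4:**
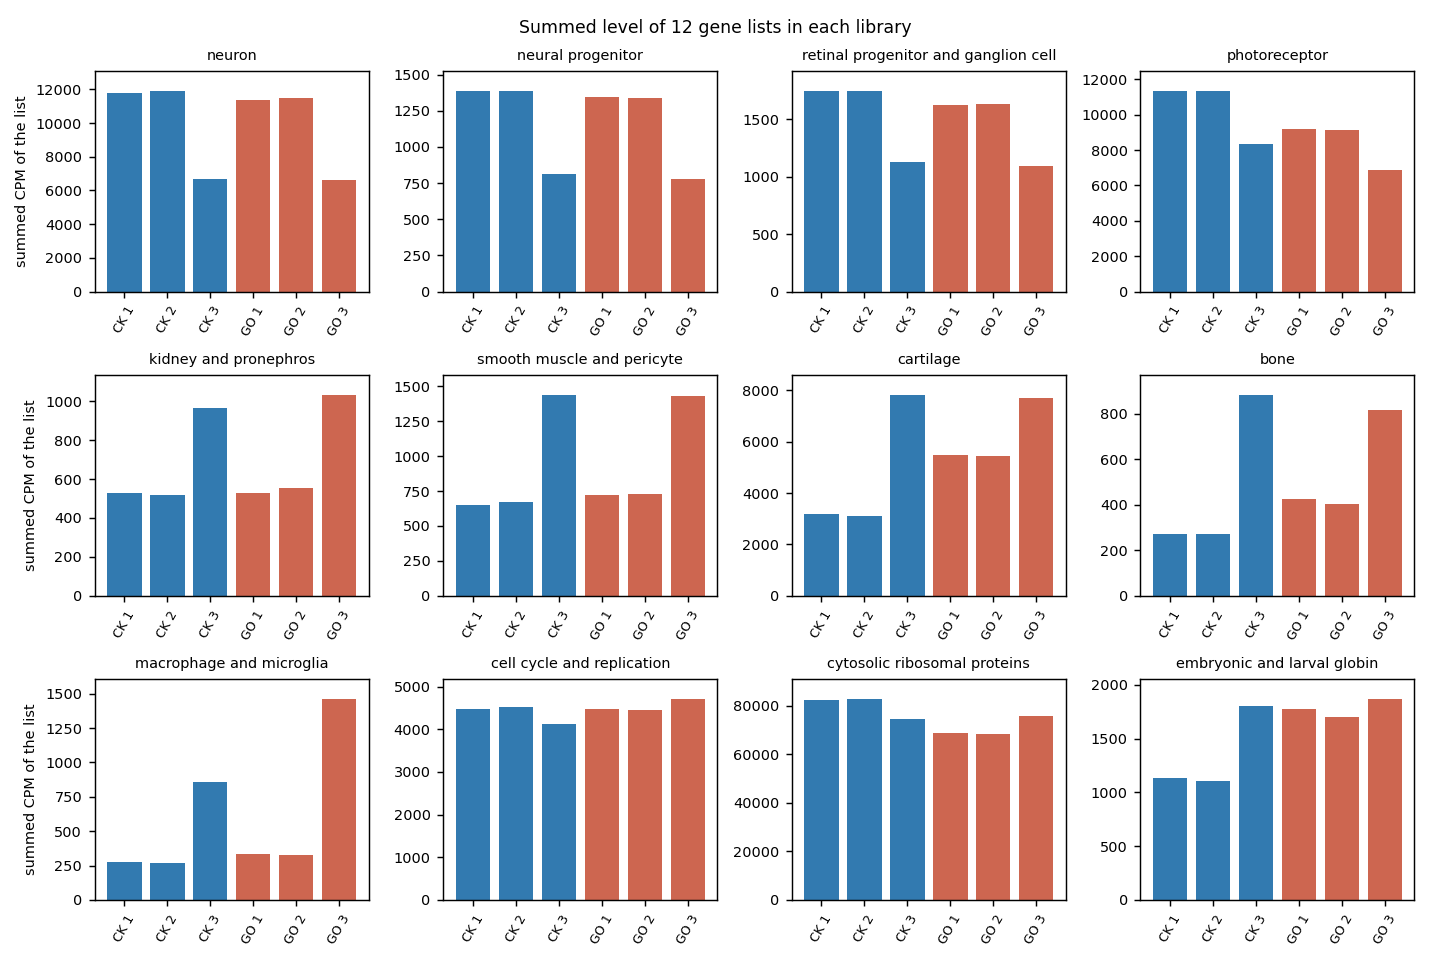
Summed CPM of 12 gene lists in each library, control in blue and graphene oxide in red, with each vertical axis starting at 0. Replicate 3 is below replicates 1 and 2 of its group for neuron, neural progenitor, retinal and photoreceptor genes and above them for kidney, smooth muscle, cartilage, bone, macrophage and larval globin genes. The macrophage sum is mostly that of apoeb, which several other tissues also make.

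Skeletal and connective tissue genes were higher in replicate 3, and more so in control. Of 30 cartilage genes, all tested, 25 were called higher and 1 lower (median 0.89). Its members summed to 3175, 3110 and 7819 CPM in control and 5488, 5451 and 7683 CPM with graphene oxide. The median was 1.15 within control and 0.64 within graphene oxide. The collagen X gene col10a1a (558919) of maturing cartilage and bone was at 14.99, 15.7 and 410 CPM in control and 72.6, 72.6 and 360 CPM with graphene oxide (3.57 ± 0.43, and 2.31 without control replicate 3). The aggrecan gene acanb was at 2.11, 1.66 and 33.2 CPM in control and 3.96, 2.59 and 30.6 CPM with graphene oxide (3.65 ± 0.22). The 2 replicate 3 libraries were close to each other, and replicates 1 and 2 of control were below those of graphene oxide. The main cartilage collagen gene col2a1a differed by 0.81 ± 0.14, and by 0.40 without control replicate 3. The cartilage transcription factor gene sox5, which neurons also express, was lower (-0.32 ± 0.07), but was not called by limma on FPKM (-0.07).

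Bone genes were higher for 16 of 21 tested members and lower for 1 (median 1.22, 1.71 within control and 0.74 within graphene oxide). The list summed to 272.8, 269.7 and 883 CPM in control and 425.6, 401.9 and 816.8 CPM with graphene oxide. The osteopontin gene spp1 (2.98 ± 0.27) and the integrin gene itgb3b (2.69 ± 0.31) were among them. The osteoblast transcription factor gene sp7 was below the level tested, at 2.96, 3.64 and 4.07 CPM in control and 3.40, 4.56 and 4.47 CPM with graphene oxide, and the osteocalcin gene bglap had at most 0.0913 CPM in a library. Tooth and enameloid genes were higher for 5 of 7 (median 1.89), with the secreted phosphoprotein gene scpp9 (100270763) at 0.528, 0.474 and 10.1 CPM in control and 0.828, 0.471 and 7.21 CPM with graphene oxide (3.89 ± 0.29).

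Notochord genes were higher for 15 of 23 and lower for 2 (median 1.00). The higher ones named were sheath collagens, col8a1a (2.42 ± 0.15) and col8a2 (2.54 ± 0.30), and the mineralisation gene entpd5a (2.95 ± 0.38), and the signal gene shha, made by notochord and floor plate, was lower (-0.53 ± 0.09). The transcription factor genes ta and foxa2 of this list differed by only -0.05 and -0.19. Some members are shared, entpd5a with the bone list and col9a1a (2.23) with the cartilage list, so the median is not particular to notochord. Tendon genes were higher for 8 of 10 (median 1.16), with the collagen gene col12a1b at 1.86 ± 0.10. Fibroblast and dermis genes were higher for 21 of 28 and lower for 1 (median 0.77). The fibronectin gene fn1b (334613) was at 32.4, 32.9 and 423 CPM in control and 55.1, 51.4 and 554 CPM with graphene oxide (3.54 ± 0.08), and its one lower companion was the mesenchymal transcription factor gene twist1a (-0.82 ± 0.14). The most familiar collagen gene, col1a1a, was not called (0.11 ± 0.09). It was called higher at 0.34 without graphene oxide replicate 3 and was at -0.13 without control replicate 3.

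The matrix families followed, but they are not separate from the lists above. Collagens such as col2a1a, col6a1 and col8a1a are counted in both. Of 55 collagens 40 were called higher and none lower (median 0.81, 1.08 within control and 0.48 within graphene oxide). Of 23 matrix metalloproteinases and their inhibitors 15 were higher and 1 lower (median 0.89). Of 19 laminins, nidogens and collagen IV genes, a list written after the values were seen, 17 were higher and 1 lower (median 0.79). The basement membrane gene col4a1 was at 8.66, 9.72 and 102 CPM in control and 18.2, 23.3 and 112 CPM with graphene oxide (2.91 ± 0.20). In the fin fold list, by contrast, 10 of 27 were higher and 6 lower (median 0.13). The larval fin ray genes and1 (0.07 ± 0.09) and and2 (0.05 ± 0.07) were not called, but were called at 0.27 and 0.18 without graphene oxide replicate 3 and lay at -0.14 and -0.09 without control replicate 3. The basement membrane gene hmcn2 was higher (1.87 ± 0.12) and the transcription factor genes tfap2e (-1.24 ± 0.11) and sp9 (-1.19 ± 0.11) were lower.

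In skin, epidermis and periderm genes were called higher for 22 of 36 and lower for 3 (median 0.46). The keratin gene krt92 was at 115, 122.8 and 400 CPM in control and 103, 104 and 403 CPM with graphene oxide (1.86 ± 0.07), and the abundant krt4 was lower (-0.72 ± 0.10), both with counts that were not whole. Of 18 keratins 11 were higher and 3 lower (median 0.76). Summed levels did not follow these counts, at 27430, 27170 and 28780 CPM in control and 25240, 25320 and 19630 CPM with graphene oxide for epidermis and periderm. Keratins summed to 25890, 25670 and 26570 CPM in control and 23360, 23410 and 17780 CPM with graphene oxide, so that replicate 3 was highest in control and lowest with graphene oxide for both lists. Both lists hold krt4 and other keratins, so these sums are not separate. Ionocyte genes were higher for 16 of 20 and lower for 2 (median 1.13). The ammonia channel gene rhcgb (2.43 ± 0.14) and the salt cotransporter gene slc12a10.2 (1.71 ± 0.11) were higher. So were the ionocyte transcription factor genes foxi3a (0.92 ± 0.17) and foxi3b (1.1 ± 0.16), while the proton pump subunit gene atp6v1aa was lower (-0.25 ± 0.06). Mucous cell genes were higher for 5 of 7 (median 0.79). Of 38 claudins, the proteins of tight junctions, 14 were higher and 8 lower (median 0.25). Among the highest were the gut claudins cldn15la (3.56 ± 0.31) and cldn15a (3.16 ± 0.35).

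Hatching enzymes, which the hatching gland of the embryo releases to digest the egg envelope, were nearly absent from replicates 1 and 2. The gene he1a (569018) was at 0.106, 0 and 77.4 CPM in control and 0, 0.157 and 11.2 CPM with graphene oxide, and he1b at 0.106, 0 and 29.2 CPM in control and 0.184, 0.314 and 5.29 CPM with graphene oxide. Both replicate 3 libraries were above all others, and control was above graphene oxide. Counts of the 2 genes were divided between near copies. In the whole hatching gland list 6 of 8 tested members were called higher (median 2.2), of which ctsl.1 and tcnl are not specific to that gland. The list as written also holds xbp1, which is in the mucous list too, and npsn, which is in the neutrophil list too.

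The lists of pigment cell genes differed from each other. Iridophore genes were called higher for 13 of 19 and none lower (median 0.75), with the purine synthesis gene paics (321193) at 44.3, 44.11 and 357 CPM in control and 36.6, 33.7 and 351 CPM with graphene oxide (3.17 ± 0.08). The purine synthesis genes atic (2.17 ± 0.10) and ppat (1.38 ± 0.10) were higher too, and purine synthesis is also a task of liver. The first gene of the list, pnp4a, was called higher, but not with replicate number as a block (0.38), and lay at 0.08 without control replicate 3. A difference in iridophores themselves is therefore not shown. Xanthophore genes were higher for 10 and lower for 4 of 14 (median 0.84), with the xanthine dehydrogenase gene xdh, which liver also makes, at 3.26 ± 0.24. Melanophore genes had no side, 6 higher and 6 lower of 18 (median 0.05). The cation channel gene trpm1b of melanophores and retina was lower (-1.11 ± 0.09). Neural crest progenitor genes were lower for 5 and higher for 3 of 15 (median -0.27), among them tfap2a (-0.96 ± 0.06), and the crest gene foxd3 was not called (-0.19 ± 0.10).

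Most blood and vessel lists had more genes called higher than lower in replicate 3, while the lymphoid and thrombocyte lists had few called genes. Red cell genes were called higher for 15 and lower for 3 of 20 (median 0.64). The ammonia channel gene rhag (405771) of the red cell membrane was at 19.3, 15.97 and 175 CPM in control and 31.6, 27.3 and 184 CPM with graphene oxide (2.98 ± 0.14). The anion exchanger gene slc4a1a differed by 1.92 ± 0.09 and the haem synthesis gene alas2 by 1.31 ± 0.09. Embryonic and larval globins were higher for 5 and lower for 1 of 9 (median 0.68). Together its members came to 1137, 1101 and 1800 CPM in control and 1771, 1700 and 1866 CPM with graphene oxide. The gene hbbe2 differed by 1.42 ± 0.06 and hbae1 by -1.14 ± 0.15, with reads divided between near copies. The 4 adult globin genes summed to at most 0.278 CPM in any library, so that none was tested. Larval globins without adult ones, in all 6 libraries, are at odds with the labelled age of 3 months. The cause of this was not tested.

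Macrophage genes were higher for 10 of 14 tested members and none was lower (median 1.08), while 10 of the 24 members were not tested. The apolipoprotein gene apoeb, which macrophages and several other tissues make, was at 220, 218 and 701 CPM in control and 258, 250 and 1254 CPM with graphene oxide (2.0 ± 0.12). Most of the list's sum was apoeb. That sum was 273.3, 270.8 and 856.1 CPM in control and 333.1, 323.9 and 1460 CPM with graphene oxide. The pore-forming gene mpeg1.1 differed by 1.06 ± 0.15. Neutrophil genes were higher for 10 of 13 (median 0.88). The neutrophil list member lyz was not called. It lay at -0.81 without graphene oxide replicate 3, at 0.30 without control replicate 3 and at -1.63 with the largest row of each gene ID. The myeloperoxidase gene mpx was at 6.33, 6.48 and 12.3 CPM in control and 6.35, 8.01 and 27.9 CPM with graphene oxide (1.5 ± 0.22, and 0.94 without graphene oxide replicate 3). The highest member of that list, cpa5, is also in the pancreas list. Of 29 lymphoid genes 8 were tested, with 3 higher and 1 lower, and the recombinase gene rag1 was not tested. The sum of that list went the other way, at 207.2, 199.9 and 145.9 CPM in control and 227.2, 226.4 and 144.6 CPM with graphene oxide. Thrombocyte genes were higher for 3 of 7 (median 0.46). Endothelial genes were higher for 19 and lower for 3 of 30 (median 0.72). The vessel cadherin gene cdh5 (445471) was at 9.39, 7.43 and 31.4 CPM in control and 10.1, 11 and 31.2 CPM with graphene oxide (1.73 ± 0.13). The lower ones included the lymph vessel transcription factor gene prox1a (-0.93 ± 0.08), which is also a gene of lens, retina and neurons.

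Among developmental patterning genes, transcription factor families were more often lower than higher in replicate 3, while signalling ligands had no side. Family members in the retina and ear lists were lower for 16 of 17, and those in the nervous system lists for 20 of 30. The part of these in the result was not tested. Of 250 tested members of patterning transcription factor families 140 were called lower, 56 of them at least 2-fold, and 25 higher, 12 at least 2-fold (median -0.58). The Iroquois genes irx6a (-1.90 ± 0.23) and irx4a (-1.85 ± 0.14) were among the lowest. Among the highest members were factors of endoderm and heart. The gene gata6 (58076) was at 2.11, 1.82 and 26.4 CPM in control and 1.196, 2.04 and 29.7 CPM with graphene oxide (3.96 ± 0.18), and gata5 at 1.27, 2.37 and 14.7 CPM in control and 1.93, 2.04 and 15.6 CPM with graphene oxide (2.97 ± 0.21). For both genes the replicate 3 libraries were close to each other and far above the rest. The gut mesenchyme gene foxf1 differed by 1.81 ± 0.19.

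Of 48 tested Hox genes, which pattern the head-to-tail axis, 25 were called lower and 1 higher (median -0.42). The list summed to 713.7, 693 and 507.2 CPM in control and 681.2, 683.2 and 518.1 CPM with graphene oxide. The anterior gene hoxd3a (30349) was at 47.0, 48.53 and 21.3 CPM in control and 48.4, 47.4 and 24.3 CPM with graphene oxide (-1.07 ± 0.08), and the more posterior gene hoxa9b differed by -1.04 ± 0.16. Genes of somite segmentation and tailbud were lower for 7 and higher for 4 of 19 (median -0.29), beside 27.0% lower and 28.8% higher among all tested genes. The clock genes of segmentation, her1 and her7, were at 0 to 0.184 CPM in all libraries and were not tested. The intestinal homeobox gene cdx1a, in the same list as a tailbud gene, was higher (3.15 ± 0.38). Genes of pharyngeal arch and jaw patterning were lower for 10 and higher for 6 of 29 (median -0.13), with dlx1a at -1.02 ± 0.15. Wnt, Fgf, Bmp, Hedgehog and Notch ligands had 20 higher and 17 lower of 75 (median 0.06). Among the lowest was gdf3 (30125), a growth factor supplied by the mother to the egg, at 8.97, 9.09 and 0.593 CPM in control and 6.72, 7.54 and 0.822 CPM with graphene oxide (-3.50 ± 0.27), and among the highest was the cartilage signal ihha (3.29 ± 0.32). Of 21 germ cell and 33 egg genes 1 and 3 were tested.

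Members of the patterning families were then set against the other members of the organ lists, which include transcription factors of other families such as hnf1ba, wt1a and isl1. Such factors went both ways in the digestive, kidney and islet lists. The genes cdx1b, hnf1ba and wt1a differed by 3.48, 1.64 and 1.67, and isl1, insm1a and arxa by -1.25, -1.32 and -0.86. Differences of ptf1a and osr1 were 0.32 and -0.02. In the digestive, kidney, thyroid and islet lists all 6 tested members of these transcription factor families were called lower (median -0.86), while 90 of 109 other members were higher and 8 lower (median 4.19, or 3.99 with 4 members at their bounds). In the skeletal and connective lists, 4 of 18 family members were lower and 2 higher (median -0.16), against 6 lower and 91 higher of 120 others (median 1.00). In the heart and muscle lists 2 of 7 were called in each direction (median -0.19), against 41 higher and 27 lower of 97 (median 0.15). In the retina and ear lists, where both kinds were lower, the medians were -1.05 over 17 and -0.48 over 120. In the nervous system lists they were -0.76 over 30 and -0.39 over 186. The 6 family members of the digestive, kidney, thyroid and islet lists were pax6b, neurod1, nkx2.2a, pax2a, pax8 and nkx2.4b. They came from the islet, kidney and thyroid lists, and none from the hepatocyte, exocrine pancreas or enterocyte lists. The medians of the latter lists were 4.89, 8.58 and 4.59, against -0.24 for the islet list and 1.64 for the kidney list. The contrast there is thus in part one between lists. It also depends on which families were counted and does not describe organ transcription factors in general. Several of these factors are shared with the nervous system, and the part of that in the result was not tested.

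**Figure D5:**
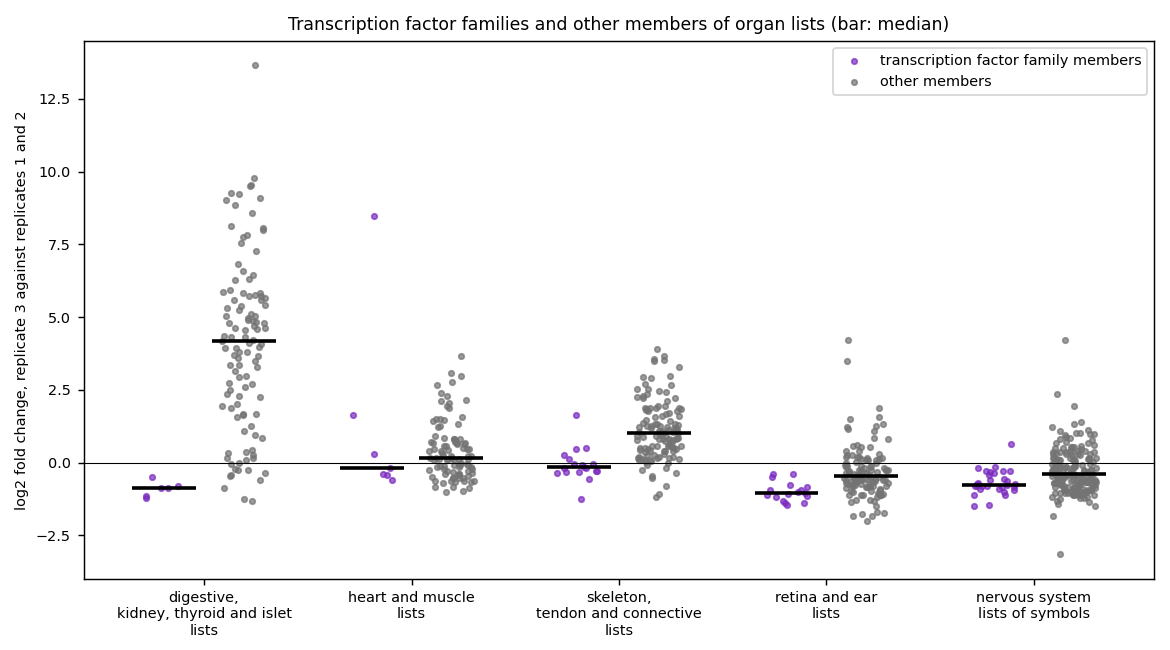
Log2 fold change of replicate 3 against replicates 1 and 2 for tested members of 5 groups of organ lists, with members of patterning transcription factor families or Hox clusters in purple, other members in grey and a bar at each median (values of genes at 0 counts in replicates 1 and 2 depend on the fit's prior count). In the digestive and skeletal groups the purple medians, -0.86 and -0.16, lie below 0 and the grey ones, 4.19 and 1.00, above it. The digestive group also holds the kidney, thyroid and islet lists, and all of its purple members come from these.

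Proliferation differed little. Of 85 cell cycle and replication genes, all tested, 23 were called higher and 8 lower, none by at least 2-fold (median 0.13). Added up, they came to 4483, 4519 and 4115 CPM in control and 4474, 4445 and 4707 CPM with graphene oxide, so that replicate 3 was below the others in control and above them with graphene oxide. The proliferation marker gene mki67 was at 204, 199 and 170 CPM in control and 180, 168 and 212 CPM with graphene oxide (0.02 ± 0.11). It was called at 0.28 without control replicate 3 and lay at -0.25 without graphene oxide replicate 3. The replication clamp gene pcna was higher (0.48 ± 0.06).

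Genes that respond to thyroid hormone and glucocorticoids were called higher for 11 of 16 tested members and lower for 1 (median 1.01). The transcription factor gene klf9 (565869), induced by both hormones in vertebrates, was at 10.24, 10.9 and 147 CPM in control and 19.9, 17.9 and 95.9 CPM with graphene oxide (3.07 ± 0.25). The thyroid hormone-inactivating deiodinase gene dio3b differed by 3.21 ± 0.13 and the gluconeogenesis gene pck1, a liver and kidney enzyme, by 5.73 ± 0.20. Among hormone receptors, thrab was higher (0.72 ± 0.08), thraa was not called (0.09 ± 0.16) and thrb, an important receptor of the retina, was lower (-1.07 ± 0.11). Circadian clock genes were higher for 16 and lower for 2 of 34, with a median of 0.59 that was 1.03 within control and 0.03 within graphene oxide. The light-induced clock gene per2 (140633) was at 17.2, 16.1 and 110 CPM in control and 24.8, 25.7 and 146 CPM with graphene oxide (2.62 ± 0.07). The time of sampling is not used here, and its part in the clock genes was not tested.

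Basic cell functions differed by less. Of 78 cytosolic ribosomal protein genes 2 were called higher and 5 lower (median -0.03), and of 99 respiratory chain genes 13 higher and 11 lower (median -0.03). The ribosomal median was -0.22 within control and 0.16 within graphene oxide. Of 52 proteasome subunits 5 were higher and 13 lower (median -0.15). Spliceosome genes were lower for 58 and higher for 5 of 90 (median -0.32), with none at least 2-fold different, and histone modifiers and chromatin remodelers were lower for 67 and higher for 19 of 124 (median -0.28). The splicing regulator gene hnrnpm differed by -0.80 ± 0.07, and srsf5a by 0.84 ± 0.08.

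Among the lowest genes outside the digestive lists were heat shock genes. The cytosolic chaperone gene hsp90aa1.2 (565155) was at 269, 267 and 60.8 CPM in control and 243, 243 and 54.1 CPM with graphene oxide (-2.15 ± 0.06). The inducible gene hsp70.3 was at 47.6, 44.3 and 12.3 CPM in control and 46.6, 53.0 and 10.4 CPM with graphene oxide (-2.07 ± 0.12), and the co-chaperone gene dnaja1 differed by -1.42 ± 0.09. Replicate 3 lay far below the others in each, and the counts of the first and second were divided with near copies. The whole family did not share this, with 16 higher and 26 lower of 86 tested members in a list written after the values were seen (median -0.04). The gene rsrp1 (724003), which encodes an arginine- and serine-rich protein, was at 520, 520 and 97.1 CPM in control and 344, 362 and 74.5 CPM with graphene oxide (-2.33 ± 0.07). The chromatin protein gene hmgb1a was at 478, 492 and 90.5 CPM in control and 507, 520 and 124 CPM with graphene oxide (-2.23 ± 0.09), with counts that were not whole. The fatty acid-binding protein gene fabp11b (-2.42 ± 0.12) was also among the lowest.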

How the data were processed

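RNA of 6 libraries was sequenced. Per the file headers, the authors deposited expected counts, TPM and FPKM for each of 43106 rows per library, and per the submitters' processing notes they used Bowtie2 2.3.2 and the GRCz11 build. The program that estimated the counts is not given in the sources used here. TPM were not used. Deposited expected counts were summed over the 36191 gene IDs (5932 on several rows) and rounded to whole numbers, and FPKM was summed likewise. Dividing reads between similar genes makes counts that are not whole, and such genes are uncertain. Libraries totalled 9739760 to 12998273 expected counts. A gene seen 0 times may have up to 3 counts, 0.231 to 0.308 CPM, a limit that covers counting error only.

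The 19313 genes with a mean FPKM of at least 1 were fitted with edgeR 4.0.16 in R 4.3.3 (TMM scaling, quasi-likelihood test, Benjamini-Hochberg adjustment), with terms for group and for replicate 3 against replicates 1 and 2, and 3 residual degrees of freedom. The procedure was checked on simulated data. DESeq2 1.42.0 and limma 3.58.1 served as alternatives, besides other scalings, filters and terms and leaving out each library. Where nothing says that libraries came from separate fish, calls measure only the spread between these libraries.

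The main fit did not pair the groups. The replicate numbers were taken as a pairing only in the alternative with replicate number as a block, from the data and not from the labels. Deviations from the group means correlated between same-numbered libraries by 0.733, 0.745 and 0.866. Deviations cancel out within a group, so the shared shift of replicate 3 enters all of these values. The pairing thus rests on replicate 3, and the differences between replicates 1 and 2 of the 2 groups, which correlated by 0.0212, show none.

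The libraries compared and the gene lists were chosen with earlier results of these data known, and 5 of the 85 lists were added after their values were seen. Of 1494 listed symbols 1467 matched a gene name or RefSeq symbol. Lists by letter pattern lost 82 symbols by name. Named genes were chosen among 4 kinds. These were the 10 highest and 10 lowest called genes outside the digestive lists at 20 CPM or more, up to 4 called members per list at 5 CPM or more with the largest difference in the direction of its median, the first 2 members as written, and up to 2 members of opposite direction at 5 CPM or more. The genes gata4, pla2g1b, hnf1ba, wt1a, slc4a4a, otofb, sst1.1 and pyya were named after their values were seen. So were ta, foxa2, cdx1b, arxa, neurod1, nkx2.2a, nkx2.4b, osr1 and ptf1a.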

Additional observations from a re-analysis of the deposited data

Results flagged for a closer look

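Among the named genes, 3 differed in opposite directions in the 2 groups by at least 0.5 on the log2 scale in each, with replicate 3 on one side of both other replicates in control and on the other side with graphene oxide. The difference between the groups was not tested. The somatolactin gene smtlb, a pituitary hormone, differed by 1.58 within control and by -5.08 within graphene oxide on the log2 scale. Its levels were 0.106, 0.316 and 0.932 CPM in control and 13.9, 16.2 and 0.274 CPM with graphene oxide. The clock genes per1a and per1b differed by 3.56 and 2.12 within control and by -0.56 and -0.65 within graphene oxide. The gene per1a was at 2.85, 4.27 and 43.0 CPM in control and 26.9, 31.2 and 19.6 CPM with graphene oxide. The gene per1b was at 30.0, 26.9 and 124 CPM in control and 135, 145 and 89.3 CPM with graphene oxide.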

How the results depend on the processing

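The number of called genes was 10789 and stayed within a factor of 1.5 under every alternative run, from 7427 with a mean FPKM of at least 5 to 11900 without the filter, and was 9269 with DESeq2. Leaving out 1 library gave 9442 to 11527 called genes, 2350 to 2953 at least 2-fold higher and 672 to 922 at least 2-fold lower. With replicate number as a block within the pairing, the counts were 9838, 2556 and 664, and 16 of 466 named genes lost their call. Of those 16 the report names only pnp4a as higher or lower. The counts higher and lower moved with a mean FPKM of at least 5 (1312 and 278) and a threshold of 4-fold (960 and 75), which by construction test or count fewer genes. The count lower also moved with limma on log2(FPKM + 1), to 319, and the cause was not tested. Over the 466 named genes and all alternatives, 8500 comparisons were counted as unchanged, 214 lost the call and 16 gained it. A further 11 changed sign with a call in the main fit or the alternative. The 8500 include sign changes of genes without a call, such as slc12a3, at 0.42 in the main fit and -0.31 without graphene oxide replicate 3. List medians changed sign in several lists, among them the fin fold (-0.07) and lymphoid (-0.82) lists at a mean FPKM of at least 5. Smaller medians did so too over the alternatives and the values within groups. Examples are the melanophore (-0.17 to 0.12), motile cilia (-0.13 to 0.26) and cytosolic ribosomal (-0.22 to 0.16) lists. Leaving out 1 library moved the lens median between -0.56 and 0.06, the pituitary median between -0.46 and 0.45 and that of mitochondrial ribosomal proteins between -0.23 and 0.01, with both ends of each range reached without 1 of the replicate 3 libraries. Within control the lens and pituitary medians were 0.05 and 0.51, and within graphene oxide the mitochondrial ribosomal one was 0.01. Between leaving out control replicate 3 and graphene oxide replicate 3, the difference went from -0.13 to 0.34 for col1a1a, from -0.19 to 0.39 for col1a1b, from -0.14 to 0.27 for and1, from -0.09 to 0.18 for and2, from 0.30 to -0.81 for lyz, from 0.28 to -0.25 for mki67, from -0.57 to 3.55 for per1a, from -0.65 to 2.13 for per1b and from -5.73 to 1.99 for smtlb. Within control smtlb was at 1.58, and zfpm1 changed sign with the largest row of each gene ID (-0.13). The cause was not tested. The filter left out genes of low level, and 2 libraries against 4 leave 3 residual degrees of freedom.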

Other observations

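Among genes with at least 10 counts in each library of one set, 7 had 0 counts in both replicate 3 libraries and 21 had 0 counts in all 4 libraries of replicates 1 and 2. All 7 of the first kind and 12 of the second carry provisional names. The gene LOC101883440 was at 10.8, 9.80 and 0 CPM in control and 10.4, 10.9 and 0 CPM with graphene oxide. Of the second kind with an established name, the secretory granule protein gene scg5 was at 13.3 and 14.9 CPM in replicate 3. The antimicrobial peptide gene leap2 of liver was at 2.88 and 4.29 CPM, the D-amino acid oxidase gene dao.1 at 13.6 and 28.1 CPM and the astacin protease gene c6ast4 at 37.0 and 33.8 CPM. Of genes called at least 16-fold different, 309 were higher in replicate 3, 85 of them with provisional names, and 15 were lower, 14 with provisional names.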
